A study of Danio rerio with 48 samples.

Results

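The change in transcript levels between 10 and 26 hours post fertilization (hpf) was compared between yolk tissue and whole embryos of wild type zebrafish. The comparison used 16 of the 32 libraries in the count table, 4 each of yolk tissue at 10 hpf, yolk tissue at 26 hpf, whole embryos at 10 hpf and whole embryos at 26 hpf, chosen by the tissue and age in their labels. All 4 groups carry the wild type genotype and no treatment is given. The labels list 48 samples, of which 16 of body tissue were not analysed here, and they do not say how the yolk was separated, how many animals were pooled or whether the replicates came from separate clutches. The p-values below therefore measure the spread between these samples, which may be technical. A whole embryo includes its own yolk cell, so both tissues hold yolk transcripts.

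The quantity of interest is the tissue difference of a gene, the log2 change from 10 to 26 hpf in yolk less the log2 change from 10 to 26 hpf in whole embryos. A positive value is called higher and a negative one lower. It is the same number as the log2 ratio of yolk to whole embryo at 26 hpf less that at 10 hpf. Genes were tested with the quasi-likelihood test of edgeR on counts scaled by TMM (trimmed mean of M-values), and a call is a Benjamini-Hochberg adjusted p below 0.05 over all genes tested. Levels are TMM-scaled CPM, counts relative to the scaled library total, given for replicates 1, 2, 3 and 4 in that order, and values after ± are standard errors for log2 differences. Levels of yolk and whole embryos at 1 age are compared by TMM alone. Its factors, given below, were smaller in yolk. The ratio, order and overlap of the tissues at an age may therefore differ with another scaling. Rose and fell are used of changes within a tissue that passed the same test, whereas higher and lower refer to the tissue difference.

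The yolk of a zebrafish is a single large cell. Its surface holds the yolk syncytial layer, a sheet of shared cytoplasm with many nuclei that forms in the blastula, helps to pattern the gastrula and later breaks down yolk stores. The layer packs yolk lipid into lipoproteins built on apolipoprotein B, with the microsomal transfer protein Mttp loading the lipid and Hnf4 nuclear receptors among the regulators, and it secretes plasma proteins in the way a liver does. Gastrulation ends at about the first of the ages compared here. By the later age the segments and the tail have formed, blood circulates over the yolk surface, and skin, the hatching gland and the heart lie on or against the yolk.

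Yolk libraries were set apart from whole embryos by the transcription factors and carriers known for the early syncytial layer. The summed level of the 7 tested genes of that list was 3233 to 3999.7 CPM in yolk and 240.2 to 281 CPM in whole embryos at 10 hpf. At 26 hpf the sums were 416 to 948 CPM in yolk and 58.3 to 66.4 CPM in whole embryos. The ranges of the tissues did not overlap at either age. Totals per library ran from 32302472 to 38073999 counts.

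One library stood apart, replicate 1 of yolk at 26 hpf. Its summed level of 29 skeletal muscle genes was 17074 CPM, whereas replicates 2, 3 and 4 had 226, 417 and 189 CPM and whole embryos at 26 hpf had 29570.3 to 34365 CPM. Neural genes summed to 1197 CPM in it and to 213, 144 and 201 CPM in the other replicates, and lens crystallins to 184 CPM against 7.46, 19.8 and 9.92 CPM. Epidermal genes summed to 9946, 5834, 5455 and 2177 CPM in replicates 1 to 4, and erythroid genes to 1589.6, 4893, 5710.2 and 7879 CPM. Replicate 1 was thus the highest of its group in markers of muscle, nerve, lens, notochord and skin and the lowest in markers of red blood cells and of the syncytial layer. In what follows "without the library" refers to this one. Counts of list members with a higher or lower tissue difference, and tissue differences printed with a standard error, are given with all 16 libraries and without it. Other values are from all 16 libraries, and a single gene kept its call and direction without the library unless stated. All marker lists were measured in every library, and their part in any one result was not tested.

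**Figure D1:**
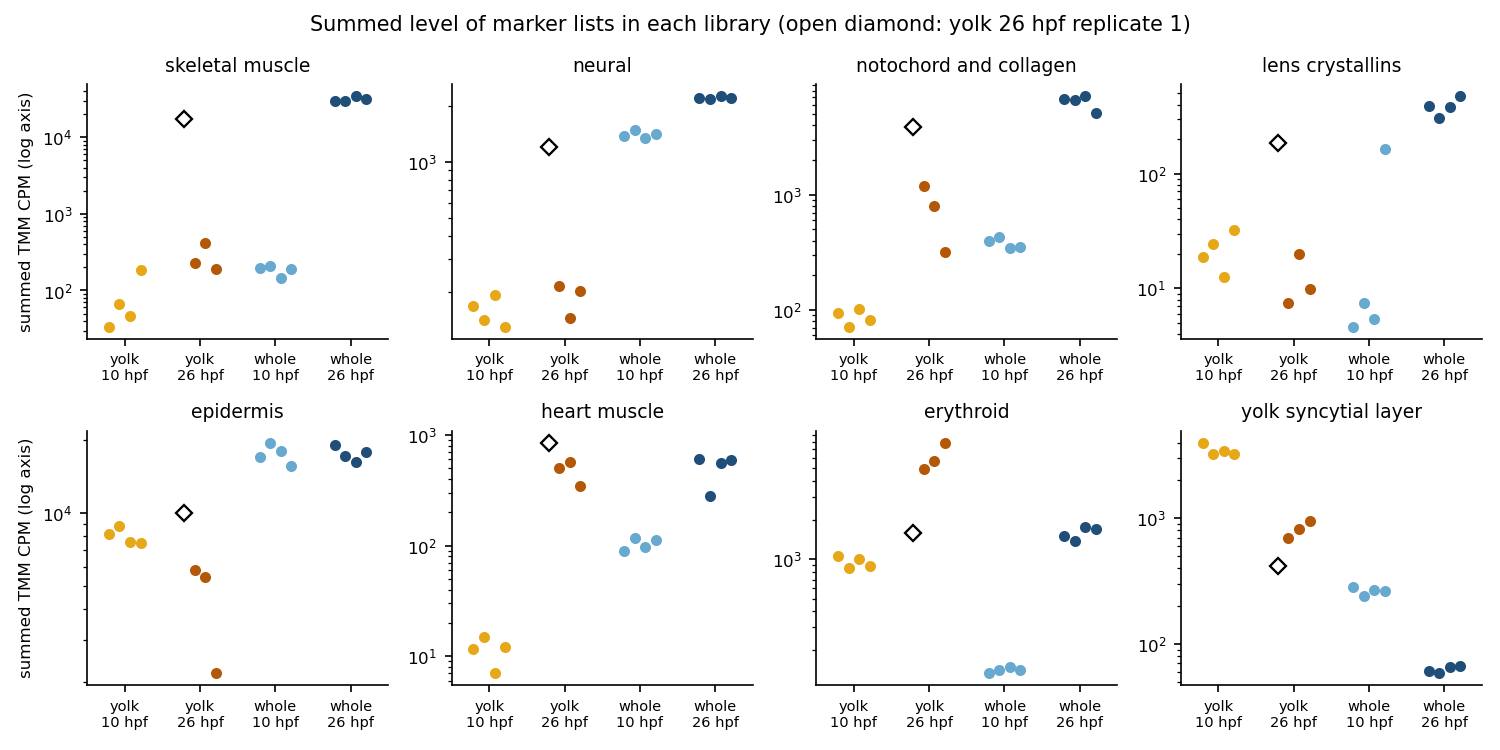
Summed TMM CPM of 8 marker lists in each of the 16 libraries (log axis, 1 point per library, replicates 1 to 4 from left to right within a group). The open diamond is replicate 1 of yolk at 26 hpf, which lies at 17074 CPM for skeletal muscle, close to the whole embryos at 26 hpf and far above the other yolk libraries.

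Of 24010 genes tested in all 16 libraries, 5192 were higher (21.6%) and 2654 were lower (11.1%), with a median tissue difference over all genes of 0.353. Without the library 24690 genes were tested, of which 3532 were higher (14.3%) and 4655 lower (18.9%), with a median of -0.0476. The balance of the directions therefore turned with 1 library. It also moved with the scaling, since DESeq2 size factors gave 3545 higher and 3337 lower genes with a median of 0.0961, and library totals alone gave 2639 and 3177 with a median of 0.0313. For this reason list medians less the median of all genes are drawn for every list in the figure of list medians below. In the text they are printed for some lists, and the other list medians are not corrected in this way. A total of 3409 genes were higher with and without the library (14.2% of genes) and 2644 genes were lower in both (11%). No gene was called in opposite directions, while 1783 higher calls and 10 lower calls were lost without the library. Across 6 fits, made of TMM, size factors and library totals each with and without the library, 2405 genes were higher in all (10%) and 2491 were lower in all (10.4%). These are referred to as calls of all 6 fits. The counts of list members called below are to be read against these shares of all genes.

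**Figure D2:**
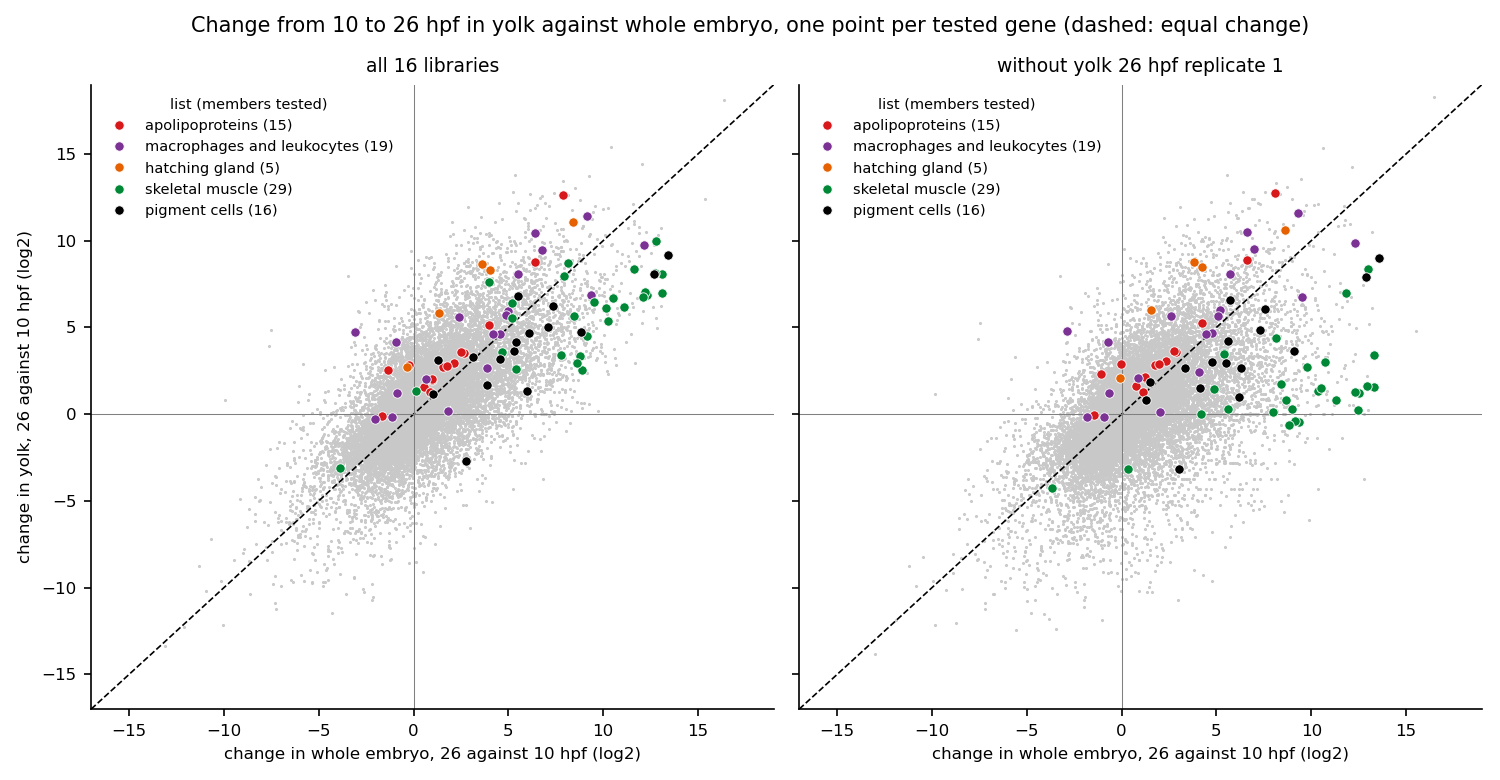
Change from 10 to 26 hpf in yolk (vertical axis, log2) against the change in whole embryos (horizontal axis, log2), with 1 point per tested gene and members of 5 lists in colour, from all 16 libraries (left) and without yolk 26 hpf replicate 1 (right). Points above the dashed line have a higher tissue difference. Apolipoproteins and hatching gland genes lie above it in both panels, and skeletal muscle genes move from a median tissue difference of -4 to -7.85.

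The calls of the change in each tissue show in which of them a change passed the test. A missing call does not show that a tissue stayed the same. With all 16 libraries 8167 genes rose (34%) and 5991 fell (25%) in yolk, 59% in all, and 6758 rose (28.1%) and 7750 fell (32.3%) in whole embryos, 60.4% in all. Among genes with a higher tissue difference, 1690 rose in yolk without a call in whole embryos, 1260 fell in whole embryos without a call in yolk, 881 rose in both, 613 fell in both and 675 rose in yolk and fell in whole embryos. Among genes with a lower tissue difference, 748 rose in whole embryos without a call in yolk, 638 fell in yolk without a call in whole embryos, 559 fell in both, 373 rose in both and 289 fell in yolk and rose in whole embryos. Without the library 56.4% of genes were called in yolk (28.7% rose and 27.7% fell) and 60.3% in whole embryos (33.1% rose and 27.2% fell). The opposite movers then numbered 387 (yolk up, whole embryo down) and 664 (yolk down, whole embryo up). In bulk tissue, fewer cells of a type and less RNA per cell cannot be told apart.

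**Figure D3:**
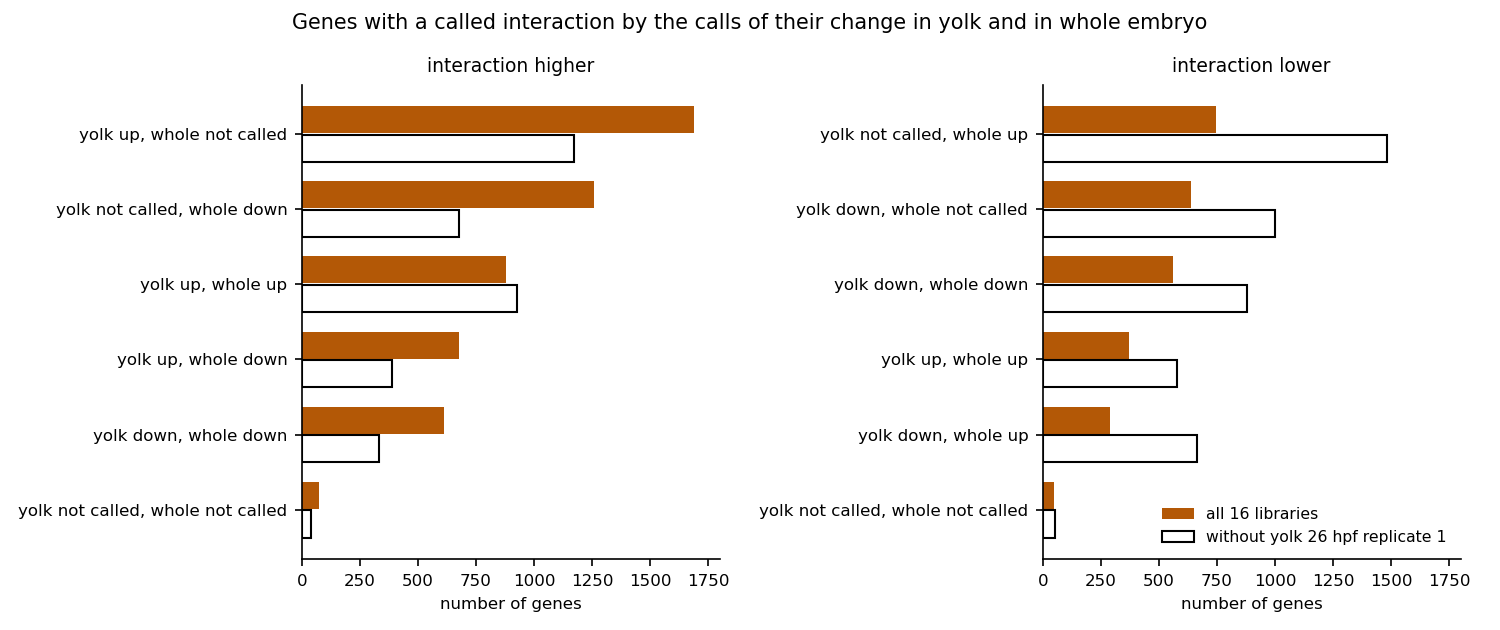
Number of genes with a higher (left) or lower (right) tissue difference, divided by the calls of their change in yolk and in whole embryos, from all 16 libraries (filled bars) and without yolk 26 hpf replicate 1 (open bars). Genes that rose in yolk with no call in whole embryos were the most numerous class of higher genes in both fits, at 1690 and 1171.

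Because whole embryos contain yolk, a gene read almost only from yolk also has a change in whole embryos. As a description of such genes, 616 had at least 8 times the level in yolk at both ages and at least 10 CPM. Their median ratio of yolk to whole embryo was 14.1 at 10 hpf and 19.8 at 26 hpf, and their median tissue difference was 0.597 (quartiles 0.141 and 0.929) and 0.445 without the library. Over all genes the median tissue difference was 0.353 and -0.0476. The ratios and the cutoff hold for TMM alone, with factors of 0.663 to 0.726 in yolk and 1.27 to 1.34 in whole embryos at 10 hpf. At 26 hpf the factors were 0.526 to 0.917 in yolk and 1.62 to 1.66 in whole embryos. These 616 genes were not chosen with another scaling. Of these genes 107 were higher and 7 were lower with all 16 libraries, and 146 and 33 without the library. Of 15 apolipoprotein genes 11 belonged to this class, as did 23 of 40 tested plasma protein genes and 8 of 24 tested genes of lipoprotein loading and export. The medians of those lists with all 16 libraries were 1.07, 0.892 and 0.428. Those of plasma proteins and of loading and export lay within the quartiles of these genes, and that of apolipoproteins lay above the upper quartile. The class was chosen by the same ratios that make up the tissue difference, and it shares members with the lists. Where a list lies against its quartiles is therefore no test of the list.

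The apolipoproteins, the protein shell of lipoproteins, were higher or not called. Of 15 tested members 9 were higher and 0 lower, with a median of 1.07 and 0.72 above the median of all genes. Without the library the same 9 were higher, with a median of 0.924. The count rested on the scaling, as it was 3 with DESeq2 size factors and 5 with library totals, and the 3 members of all 6 fits were apoc1, apoeb and apoea. In yolk 13 members rose and none fell, and in whole embryos 11 rose and 1, apoeb, fell. In yolk at 26 hpf replicate 1 had the lowest and replicate 4 the highest level of apobb.1, apoa1a, apoc1, apoeb and apoea. This is the reverse of the order of epidermal genes above. The TMM factors of replicates 1 to 4 fell from 0.917 through 0.737 and 0.602 to 0.526, and a smaller factor gives a larger CPM. The part of the scaling in that order, and of that order in the result, was not tested.

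The structural protein of the particle is apolipoprotein B. Its most abundant gene, apobb.1, had 26920.0, 31568, 24732 and 30407 CPM in yolk at 10 hpf and 64482, 107493, 128310.0 and 151947 CPM at 26 hpf. Whole embryos had 2831, 1778, 1787 and 2189 CPM at 10 hpf and 3089.9, 4494, 4612 and 4749.6 CPM at 26 hpf. All yolk libraries of 26 hpf lay above all of 10 hpf, with replicate 1 the lowest of them, and the ratio of yolk to whole embryo went from 13.2 to 26.7. Its tissue difference was 1.01 ± 0.34 (adjusted p = 0.03) and 0.87 without the library (adjusted p = 0.013). The call was lost with size factors (adjusted p = 0.11) and with library totals (adjusted p = 0.104). Leaving out each of the 16 libraries in turn took the call away for 7 of them, with adjusted p from 0.0127 to 0.0713. The paralogs apoba and apobb.2 rose in both tissues by more than apobb.1 and had tissue differences of 0.81 ± 0.43 (adjusted p = 0.16, and 0.71 without the library) and 0.88 ± 0.37 (adjusted p = 0.083, and 0.74 without the library). Neither passed the test, although apobb.2 did so with a block of age and replicate number (adjusted p = 0.027) and without yolk 10 hpf replicate 2 (adjusted p = 0.0439). Reads of these similar genes may be split or lost in counting.

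Among the exchangeable apolipoproteins, apoa1a, a main protein of high density lipoprotein, had 12180.4, 13158, 9281 and 8363 CPM in yolk at 10 hpf and 26486, 39667, 54779 and 57229.7 CPM at 26 hpf. Whole embryos had 603, 685, 568 and 559 CPM at 10 hpf and 1093, 1312, 1159.5 and 1193 CPM at 26 hpf. It rose in both tissues without overlap of the ages, and the tissue difference was 1.07 ± 0.30 (adjusted p = 0.013, and 0.91 without the library), which was not a call with size factors (adjusted p = 0.06). The related apoa1b, apoa2, apoa4b.1 and apoc2, the activator of lipoprotein lipase, had similar tissue differences of 1.04, 1.04, 1.2 and 1.06, which were calls with and without the library and likewise were not calls with size factors. Those of apoa2, apoa4b.1 and apoc2 were not calls with library totals either (adjusted p = 0.0804, 0.136 and 0.124). Leaving out 1 library took the call away for 5 of 16 libraries in apoa2 and for 11 each in apoa4b.1 and apoc2, with adjusted p of at most 0.0584, 0.085 and 0.0914, and for none in apoa1a and apoa1b.

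The larger differences were those of apoc1, a regulator of lipoprotein remodelling, and of the genes of apolipoprotein E, the ligand by which cells take up lipoproteins. The yolk libraries had 1491, 1719, 1014 and 1288 CPM of apoc1 at 10 hpf and 5294, 8233, 12248 and 13002 CPM at 26 hpf. The whole embryos had 377, 418, 415 and 361 CPM at 10 hpf and 283, 329, 246 and 465 CPM at 26 hpf, sets that overlap. The yolk level thus rose while no change passed the test in whole embryos, and the tissue difference was 3.06 ± 0.37 (adjusted p = 1.4e-05, and 2.92 without the library).

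For apoeb the call of a change came from the other tissue. Yolk had 30867, 28488, 29459 and 28985 CPM at 10 hpf and 14281, 22445, 31379 and 39720.4 CPM at 26 hpf, sets that overlap, with replicate 1 lowest and replicate 4 highest at the later age. Whole embryos had 3219.9, 3186, 3713 and 3237 CPM at 10 hpf and 906, 1093, 1014 and 1139.9 CPM at 26 hpf, without overlap. The tissue difference of 1.56 ± 0.32 (adjusted p = 0.0015, and 1.42 without the library) came with a fall in whole embryos by 1.69 and no call in yolk. The paralog apoea was at or under 0.401 CPM in every library at 10 hpf, and at 26 hpf had 500.1, 1009.8, 609 and 2232 CPM in yolk and 25.7, 23.9, 21.3 and 68.1 CPM in whole embryos, with a tissue difference of 4.74 ± 1.28 (adjusted p = 0.011, and 4.63 without the library). Without whole embryo 10 hpf replicate 2 it was 3.86 and no longer a call (adjusted p = 0.0764).

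The Hnf4 genes hnf4a and hnf4b fell in both tissues. The nuclear receptor gene hnf4b had 681, 714, 719 and 588 CPM in yolk at 10 hpf and 82.4, 154, 185 and 284 CPM at 26 hpf. Its whole embryo levels were 44, 42.2, 43.8 and 44.4 CPM at 10 hpf and 4.55, 6.79, 6.42 and 5.97 CPM at 26 hpf. Both falls were without overlap, and the tissue difference of 0.94 ± 0.36 was just outside the threshold (adjusted p = 0.053). It was a call without the library (0.83, adjusted p = 0.0086) and with the block of age and number (adjusted p = 0.038). For hnf4a, which fell in yolk from 415 ± 51.5 to 72.5 ± 37.4 CPM (mean ± SD, n = 4), the tissue difference was 0.43 ± 0.42 (0.35 without the library) and was not called with or without the library (adjusted p = 0.47 and 0.4). The third gene, hnf4g, stayed under 2 CPM in every library.

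Creb3-like factors are membrane-bound activators of lipoprotein genes. The gene creb3l3b had 137, 142, 116 and 151 CPM in yolk at 10 hpf and 90.5, 176, 172 and 235 CPM at 26 hpf, sets that overlap. Levels in whole embryos were 10.6, 8.09, 5.62 and 10.2 CPM at 10 hpf and 3.96, 3.61, 5.2 and 4.5 CPM at 26 hpf, a fall without overlap. Its tissue difference was 1.3 ± 0.34 (adjusted p = 0.0086, and 1.17 without the library), a call of all 6 fits, whereas its paralog creb3l3a, at 0.71 (adjusted p = 0.18), was not called, although it was without the library when the block was added (adjusted p = 0.045).

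Lipid loading and export showed no common direction. Of 24 tested genes of that list 8 were higher and 3 lower, both also without the library, with a median of 0.428, 0.0751 above all genes. The transfer protein gene mttp had 3063, 2678, 3498 and 3116 CPM in yolk at 10 hpf and 424, 806, 855 and 1639 CPM at 26 hpf. The whole embryo libraries had 212, 144, 226 and 199 CPM at 10 hpf and 35.2, 41.9, 35.2 and 47.9 CPM at 26 hpf. It fell in both tissues without overlap, and the tissue difference was 0.55 ± 0.40 (adjusted p = 0.31, and 0.44 without the library), and its level in yolk at 26 hpf spread from replicate 1 to replicate 4 by more than that difference. The secreted phospholipase gene pla2g12b, needed for lipoprotein secretion, had a tissue difference of 0.78 ± 0.29 (adjusted p = 0.047, and 0.62 without the library). The call was lost with size factors (adjusted p = 0.2), with library totals (adjusted p = 0.161) and on leaving out any of 13 of the 16 libraries (adjusted p of at most 0.0919).

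Other members of that list were called in both directions. The gene sar1b, whose GTPase starts the coat of vesicles that carry lipoprotein from the endoplasmic reticulum, had 109.8, 106, 103 and 118 CPM in yolk at 10 hpf and 152, 184, 238 and 287 CPM at 26 hpf. At these ages whole embryos had 108, 87.5, 82.8 and 98.9 CPM at 10 hpf and 63.9, 69.2, 68.8 and 64.3 CPM at 26 hpf. It rose in yolk and fell in whole embryos, with no overlap in either, and the tissue difference was 1.48 ± 0.23 (adjusted p = 0.00013, and 1.27 without the library). The related sar1ab went the other way, with a tissue difference of -1.73 ± 0.39 (adjusted p = 0.003, and -1.95 without the library). The triglyceride-forming enzyme gene dgat1b rose in yolk from 2.0, 1.1, 1.58 and 1.69 to 6.11, 3.59, 8.02 and 9.33 CPM. It fell in whole embryos from 8.49, 8.82, 7.99 and 8.35 to 3.74, 3.86, 3.91 and 3.67 CPM, which gave a tissue difference of 3.23 ± 0.38 (adjusted p = 1.1e-05, and 2.93 without the library).

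Other transcription factors of liver and endoderm split. Of 26 tested members 6 were higher and 4 lower with all libraries, and 6 and 7 without the library, around medians of 0.172 and -0.0178. Less the median of all genes these medians were -0.182 and 0.0297, each of the opposite sign. With all libraries the share that was higher was near the 21.6% of all genes. The largest differences of all 6 fits were hnf1bb (4.78, and 4.12 without the library) and cebpd (4.61) on the higher side and onecut1 (-3.8) and nr5a2 (-3.05) on the lower side. The gene cebpd, which in mammals encodes a CCAAT-binding factor induced in inflammation and adipocyte formation, had 1.52, 1.62, 3.17 and 4.01 CPM in yolk at 10 hpf and 39.4, 66.9, 94.4 and 106 CPM at 26 hpf. For whole embryos the values were 11.1, 9.37, 9.99 and 8.51 CPM at 10 hpf and 13.9, 10.1, 10.8 and 12.7 CPM at 26 hpf. The yolk libraries separated by age and those of whole embryos overlapped. The adjusted p of its tissue difference of 4.61 ± 0.45 was 1.4e-06, and without the library the difference was 4.48.

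The gene onecut1, of a hepatocyte and pancreas factor, moved in opposite directions. Yolk had 265, 156, 231 and 195 CPM at 10 hpf and 61.9, 69.9, 76.3 and 91.8 CPM at 26 hpf. Whole embryos had 22, 11.7, 14.1 and 14.1 CPM at 10 hpf and 66.4, 72.2, 91 and 75.2 CPM at 26 hpf. Both changes were without overlap. At 26 hpf the TMM levels of the tissues overlapped, which was not checked with another scaling. The tissue difference was -3.8 ± 0.29 (adjusted p = 1.8e-07, and -4.06 without the library), and nr5a2, of an orphan nuclear receptor of endoderm, had the same pattern of a fall in yolk and a rise in whole embryos.

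Most genes of the early syncytial layer fell in both tissues. Of 7 tested members 6 fell in yolk and 5 in whole embryos, with 2 higher and 1 lower tissue differences. Without the library 1 was higher and 2 were lower, so the balance turned with it. The sulfate carrier gene slc26a1 had 999, 767, 1018 and 859 CPM in yolk at 10 hpf and 8.48, 10.7, 8.26 and 13.6 CPM at 26 hpf. Whole embryo libraries held 61.8, 39, 50.3 and 48.3 CPM at 10 hpf and 13.4, 9.28, 12.1 and 13.8 CPM at 26 hpf. By TMM the yolk fell to the level of the whole embryo, the ratio going from 18.3 to 0.846, and these ratios depend on the scaling. The tissue difference was -4.43 ± 0.27 (adjusted p = 2.7e-08, and -4.69 without the library). The endodermal factor gene gata5 fell less in yolk than in whole embryos, from 1033, 797, 999 and 920.1 to 148, 273, 356 and 379.6 CPM in yolk. In whole embryos it fell from 92.7, 86.7, 102 and 94.1 to 12.2, 12.7, 12.1 and 14.2 CPM, and its tissue difference was 1.17 ± 0.30 (adjusted p = 0.0066, and 1.05 without the library). The paralog gata6 had 0.63 (adjusted p = 0.09), and the syncytial layer homeobox gene mxtx1 had 1.29 (adjusted p = 0.04), which was not a call without the library (adjusted p = 0.054) nor without any of 11 others. The call of mxtx1 was also lost with size factors (adjusted p = 0.108) and with library totals (adjusted p = 0.158).

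**Figure D4:**
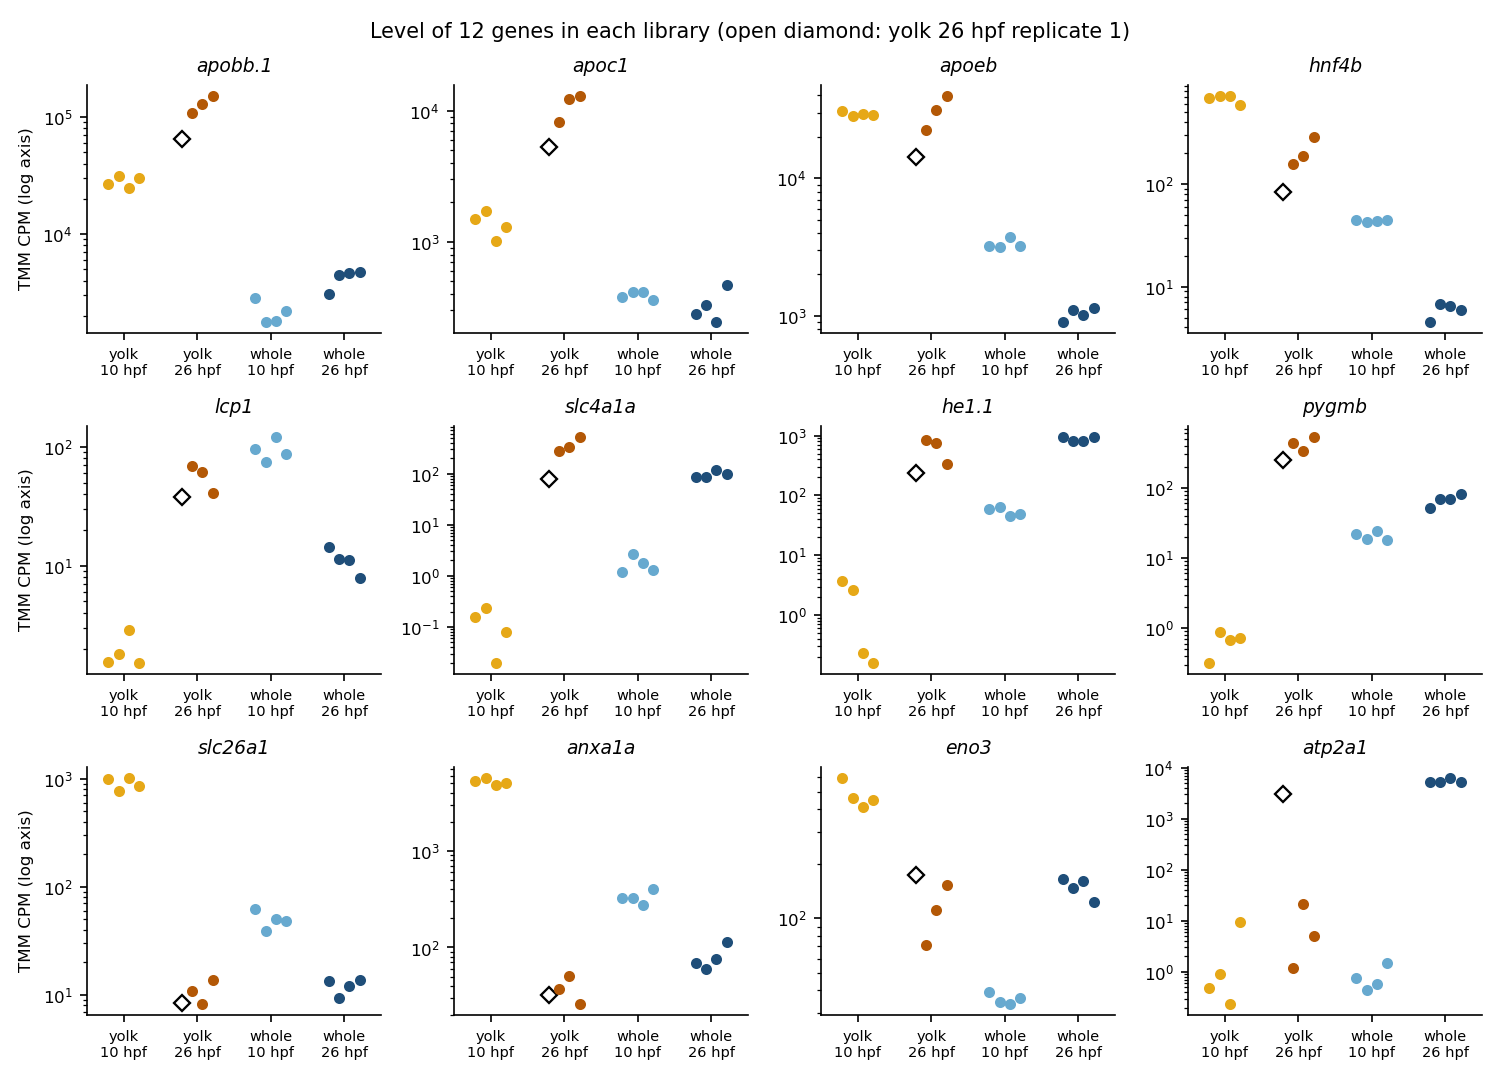
TMM CPM of 12 genes in each of the 16 libraries (log axis, 1 point per library, a library at 0 drawn at 0.02 CPM). The open diamond is replicate 1 of yolk at 26 hpf. In apobb.1, apoc1, pygmb and slc4a1a the yolk points rise clear of their 10 hpf level, in slc26a1 and anxa1a they fall to or under the level of whole embryos, and in atp2a1 the diamond alone stands near the whole embryos of 26 hpf, at 3102 CPM.

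Plasma protein genes were likewise higher or not called. Of 40 tested members 13 were higher and 0 lower, with a median of 0.892 (0.539 above all genes), and 16 were higher without the library. With the gene that had no count in a group at its bound, the median itself was 0.903. The count was 4 with size factors, 5 with library totals and 26 with the block of age and number. The gene vtna, of the clotting and adhesion protein vitronectin, had 2.88, 3.31, 3.25 and 3.37 CPM in yolk at 10 hpf and 72.9, 146, 172 and 155 CPM at 26 hpf. In whole embryos it had 0.289, 0.594, 0.982 and 0.568 CPM at 10 hpf and 4.1, 7.14, 7.46 and 5.45 CPM at 26 hpf. It rose in both tissues without overlap and by more in yolk, with a tissue difference of 2.1 ± 0.43 (adjusted p = 0.0015, and 1.97 without the library). Fetuin B, fetub, among the most abundant of these transcripts, fell in both tissues, and its tissue difference of 0.94 was not called (adjusted p = 0.073). It was a call without the library (adjusted p = 0.031), without whole embryo 26 hpf replicate 4 and with the block (adjusted p = 0.028).

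Carriers of iron, heme and copper gave 7 higher and 1 lower among 21 tested, with a median of 0.509 (0.156 above all genes). Without the library 8 were higher and 1 lower. With the gene that had no count in a group at its bound, the median itself was 0.549. Heme oxygenase hmox1a, which breaks heme down, had 44.8, 54.8, 28.5 and 45.5 CPM in yolk at 10 hpf and 480.2, 720.2, 993 and 1160.0 CPM at 26 hpf. Whole embryos had 6.41, 4.86, 5.82 and 6.61 CPM at 10 hpf and 25.5, 23.4, 21 and 31.3 CPM at 26 hpf. Both rose without overlap, and the tissue difference was 2.18 ± 0.35 (adjusted p = 0.00018, and 2.02 without the library), a call of all 6 fits. The copper-carrying ferroxidase gene cp went from under 1 CPM in every 10 hpf library to 232, 352, 558 and 609 CPM in yolk and 20.5, 28.9, 41.9 and 16.8 CPM in whole embryos. This gave a tissue difference of 3.06 ± 1.03 (adjusted p = 0.034, and 2.93 without the library). The call was lost with size factors (adjusted p = 0.0546), with library totals (adjusted p = 0.062) and on leaving out any of 7 of the 16 libraries (adjusted p of at most 0.254). It was also lost without the library when the block was added (adjusted p = 0.057). The iron exporter gene slc40a1 and transferrin, tfa, had 1.15 and 1.1, both called with and without the library. The call of tfa was lost with size factors (adjusted p = 0.077) and that of slc40a1 with library totals (adjusted p = 0.083).

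Haptoglobin, hp, which binds free hemoglobin, had a large difference with wide spread. Its yolk levels were 4.0, 7.61, 2.46 and 2.01 CPM at 10 hpf and 1.42, 35.8, 0.19 and 68.8 CPM at 26 hpf. Whole embryos had 2.33, 11.5, 8.34 and 4.4 CPM at 10 hpf and 0, 0.78, 0.067 and 0.60 CPM at 26 hpf. At 26 hpf replicates 2 and 4 were high in yolk and replicates 1 and 3 lay at or under the 10 hpf level, and in whole embryos the same numbers were the higher ones. The resulting tissue difference was 6.9 ± 1.87 (adjusted p = 0.011, and 6.93 without the library), from 5.81 without yolk 26 hpf replicate 4 to 7.57 without whole embryo 26 hpf replicate 2, and the change in yolk was not called with all libraries.

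Lysosomal genes were higher in more than 1 class of protein. Of 29 tested members 16 were higher and 1 lower, and without the library 17 and 2, with medians of 1.13 and 0.935. In all 6 fits 12 were higher and 1 lower. In whole embryos 17 members fell and 4 rose, and in yolk 7 fell and 15 rose. Prosaposin, psap, the precursor of activators of sphingolipid breakdown, had 15232, 14163, 14249 and 13242 CPM in yolk at 10 hpf and 8342, 10956, 16636 and 17414 CPM at 26 hpf, which overlap. Its whole embryo levels were 1057, 861, 950.1 and 931 CPM at 10 hpf and 416, 440.0, 487 and 449 CPM at 26 hpf, a fall without overlap, and the tissue difference was 0.99 ± 0.27 (adjusted p = 0.01, and 0.82 without the library). The call was lost with size factors (adjusted p = 0.061). The proteases ctso and tpp1 had 2.82 and 1.77 and rose in yolk while they fell in whole embryos.

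The most abundant cathepsin of yolk at 10 hpf did not follow. Cathepsin C, ctsc, had 31779, 24659, 28347 and 27656 CPM in yolk at 10 hpf and 687, 1145, 1508 and 2338 CPM at 26 hpf. Levels in whole embryos were 1897, 1435, 1585 and 1849.8 CPM at 10 hpf and 59.4, 56.8, 60.4 and 74.1 CPM at 26 hpf. It fell in both tissues without overlap, and its tissue difference of 0.45 ± 0.37 (0.33 without the library) was not called (adjusted p = 0.38). The protease paralogs ctss2.1 and ctss2.2, members of the macrophage and leukocyte list below, were higher. Of the summed level of that list in yolk at 10 hpf, 5951, 3217, 4625 and 3660 CPM, most was ctss2.1. In yolk ctss2.1 had 5906, 3167, 4588 and 3630.1 CPM at 10 hpf and 2059, 3339, 3929 and 5175 CPM at 26 hpf, which overlap. In whole embryos it fell from 275, 178, 222 and 229 to 52.4, 49.9, 43.4 and 75.9 CPM, with a tissue difference of 1.77 ± 0.37 (adjusted p = 0.0018, and 1.62 without the library).

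The vacuolar proton pump, which acidifies lysosomes, had 3 higher and 5 lower of 26 tested subunits, and 3 and 9 without the library. Its membrane ring subunit gene atp6v0cb had 497, 470.2, 456 and 418 CPM in yolk at 10 hpf and 34.1, 28.4, 44.9 and 46.6 CPM at 26 hpf. The whole embryo libraries had 33.4, 27.3, 37 and 28.7 CPM at 10 hpf and 24.6, 19.7, 21.7 and 20.2 CPM at 26 hpf. It fell in both and by far more in yolk, with a tissue difference of -3.03 ± 0.22 (adjusted p = 1.1e-07, and -3.32 without the library). Its paralog atp6v0ca, at 0.94 (adjusted p = 0.051), was not called, but was without the library (adjusted p = 0.028), without yolk 26 hpf replicate 2 or whole embryo 10 hpf replicate 4, and with the block (adjusted p = 0.044).

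Enzymes and carriers of metabolism did not share a direction. Gluconeogenesis and glycogen genes gave 5 higher and 3 lower of 23, fatty acid oxidation genes 9 and 5 of 25, cholesterol synthesis genes 7 and 1 of 23, and fatty acid and triglyceride synthesis genes 6 and 3 of 28. Without the library these counts were 5 and 5, 8 and 7, 4 and 3, and 4 and 4. With all libraries the counts of gluconeogenesis and of fatty acid and triglyceride synthesis were near the shares of all genes, 21.6% higher and 11.1% lower. The medians of the 4 lists less the median of all genes lay between -0.21 and 0.147, with cholesterol synthesis lowest and gluconeogenesis highest. Without the library they lay between 0.0902 and 0.403, with the same lists at the ends, so that of cholesterol synthesis changed sign. With the gluconeogenesis gene that had no count in a group at its bound, that list's median was 0.141 before this subtraction.

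A few enzyme genes had far larger differences than their lists. Glycogen phosphorylase pygmb, which frees glucose units from glycogen, had 0.32, 0.868, 0.674 and 0.722 CPM in yolk at 10 hpf and 247, 434, 336 and 534 CPM at 26 hpf. At these ages whole embryos had 22.3, 18.3, 24 and 18 CPM at 10 hpf and 50.8, 69.6, 70 and 80.6 CPM at 26 hpf. It was lower in yolk than in whole embryos at 10 hpf and higher at 26 hpf, with no overlap at either age. Its tissue difference was 7.51 ± 0.39 (adjusted p = 4.9e-09) and 7.33 without the library. The most abundant gene of that list, pck2, of a mitochondrial enzyme of gluconeogenesis, fell in yolk from 20166, 15575, 17490.1 and 15149 to 932, 1476, 1796 and 2546 CPM. It fell in whole embryos from 1296, 934, 976 and 1068 to 66.3, 73.8, 73.1 and 85 CPM, and its tissue difference was 0.50 ± 0.32 (adjusted p = 0.25, and 0.36 without the library).

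In cholesterol synthesis hsd17b7, of a late sterol reductase, had 0.32, 0.237, 0.317 and 0.161 CPM in yolk at 10 hpf and 36.9, 49.6, 63.7 and 61.7 CPM at 26 hpf. For whole embryos the values were 2.43, 1.14, 1.03 and 0.487 CPM at 10 hpf and 4.19, 6.68, 4.21 and 5.64 CPM at 26 hpf. Both rose without overlap, and the tissue difference was 5.64 ± 0.56 (adjusted p = 1.8e-06, and 5.44 without the library). The gene idi1, of an isomerase early in the pathway, was higher by 1.71. In fatty acid oxidation acaa1 and acad11 were higher (2.46 and 2.15), and hadhab and acadl were lower (-2.4 and -2.11), all calls of all 6 fits. The receptor genes lrp2a and lrp1ab, of large endocytic receptors for lipoproteins, were higher (2.51 and 2.17), and lrp1aa and the phospholipid transfer protein gene pltp were lower (-3.99 and -2.8).

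Amino acid carriers split evenly. Of 28 tested members 6 were higher and 6 lower, with and without the library and in all 6 fits. With all libraries the share that was higher was near the 21.6% of all genes, and the share that was lower was above their 11.1%. The neutral amino acid carrier gene slc1a4 had 1.76, 1.66, 0.475 and 0.562 CPM in yolk at 10 hpf and 244, 386, 368 and 446 CPM at 26 hpf. Whole embryo libraries held 6.87, 8.62, 3.57 and 6.2 CPM at 10 hpf and 36.4, 35, 37.4 and 33.2 CPM at 26 hpf. It rose from a lower level in yolk to one above that of whole embryos, with a tissue difference of 5.85 ± 0.50 (adjusted p = 4.4e-07, and 5.65 without the library). The glutamine carrier gene slc38a3a had 70.9, 45.5, 78.1 and 62.1 CPM in yolk at 10 hpf and 5.04, 1.34, 1.42 and 2.25 CPM at 26 hpf. Whole embryos had 5.81, 2.9, 4.82 and 3.61 CPM at 10 hpf and 6.29, 9.14, 10 and 9.22 CPM at 26 hpf, and its tissue difference was -5.67 ± 0.52 (adjusted p = 8.3e-07, and -6.63 without the library). The yolk fell from above to below the whole embryo. Sugar and monocarboxylate carriers had 3 higher, among them the glucose carrier gene slc2a8 (3.63), and 4 lower of 21, and 4 and 4 without the library, and 5 were higher with the block.

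Macrophage and leukocyte genes were higher or not called. Of 19 tested members 6 were higher and 0 lower, as were 6 and 0 of 20 without the library, and 5 were calls of all 6 fits. Among these 5 were ctss2.1 and ctss2.2, and ctss2.1 already had 19.1 times the whole embryo level in yolk at 10 hpf. Whether the calls of this list reflect leukocytes was not tested. The median was 1.39, and 0.967 with genes that had no count in a group set at their bound. The actin-bundling protein gene lcp1, a marker of leukocytes, had 1.56, 1.81, 2.85 and 1.53 CPM in yolk at 10 hpf and 37.8, 68.8, 61.6 and 40.8 CPM at 26 hpf. Whole embryos had 96.3, 74.8, 121 and 87.2 CPM at 10 hpf and 14.3, 11.3, 11.2 and 7.8 CPM at 26 hpf. In TMM levels the order of the tissues was opposite at the 2 ages with no overlap, which was not checked with another scaling. The tissue difference was 7.84 ± 0.39 (adjusted p = 4.9e-09, and 7.64 without the library). The NADPH oxidase gene cybb and the myeloid factor gene spi1b were higher by 5.11 and 3.23.

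Erythroid genes rose in both tissues. Of 22 tested members 21 rose in yolk and 19 in whole embryos, and 6 were higher and 2 lower, with and without the library. With all libraries the counts of higher and lower members were near the shares of all genes, 21.6% higher and 11.1% lower. The red cell anion exchanger gene slc4a1a had 0.16, 0.237, 0 and 0.080 CPM in yolk at 10 hpf and 79.5, 278, 339.8 and 526 CPM at 26 hpf. Its whole embryo levels were 1.18, 2.68, 1.81 and 1.28 CPM at 10 hpf and 85.5, 84.5, 118 and 100.1 CPM at 26 hpf. In TMM levels at 26 hpf replicate 1 of yolk lay just under the lowest whole embryo, and the other 3 yolk libraries lay above all whole embryos. The tissue difference was 5.48 ± 0.81 (adjusted p = 0.00012), and 5.45 without the library.

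The blood stem cell factor gene tal1 had 0, 0.395, 0.238 and 0 CPM in yolk at 10 hpf and 14, 31, 32.7 and 42.1 CPM at 26 hpf. Levels in whole embryos were 7.42, 6.99, 6.83 and 5.31 CPM at 10 hpf and 12.7, 13.4, 18.8 and 12.7 CPM at 26 hpf. In TMM levels the yolk went from below to mostly above the whole embryo, with an overlap at 26 hpf through replicate 1. That order was not checked with another scaling. The tissue difference was 6.41 ± 0.75 (adjusted p = 1.0e-05, and 6.31 without the library). The alpha globin gene hbae3, of the protein that carries oxygen, rose in both tissues, and its tissue difference was 0.21 ± 0.58 (adjusted p = 0.82, and 0.16 without the library). The globin gene hbbe3 had no count in any library of 10 hpf, so no tissue difference is given. Endothelial genes, the lining of the vessels, gave 2 higher and 6 lower of 17, with and without the library, of which tie1 and kdr were lower (-2.42 and -0.84) and fli1a was higher (2.71). The call of kdr was lost on leaving out any of 7 of the 16 libraries (adjusted p of at most 0.066). With the block 4 endothelial genes were higher. Already at 10 hpf this list summed to 588 to 821 CPM in yolk and 61.9 to 96 CPM in whole embryos. By TMM, kdr in yolk had 15.1 times the whole embryo level at 10 hpf. Its log2 change was -2.64 in yolk and -1.8 in whole embryos. Whether the calls of this list reflect vessels was not tested.

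Skin and hatching gland genes gave the highest list medians of all 36 lists, in both fits. Of 24 tested genes of epidermis and its enveloping layer 19 were higher and 1 lower, and 17 and 1 without the library, with medians of 3.76 and 2.82. The type II keratin gene krt4 had 87.1, 112, 78.8 and 61.9 CPM in yolk at 10 hpf and 4916, 2287, 2237 and 272 CPM at 26 hpf. The whole embryo libraries had 4994, 5807, 5381 and 4645 CPM at 10 hpf and 11072, 10006, 9939.5 and 10041 CPM at 26 hpf. Replicate 1 was the highest and replicate 4 the lowest of the later yolk libraries, and all lay above those of 10 hpf. The resulting tissue difference was 3.86 ± 0.72 (adjusted p = 0.00083), 2.94 without the library, and no call without the library when the block was added (adjusted p = 0.056).

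The exception was annexin anxa1a, a membrane-binding protein. Yolk had 5329, 5704, 4826 and 4993 CPM at 10 hpf and 32.4, 37.2, 51 and 26.2 CPM at 26 hpf. Whole embryos had 325, 328, 275 and 403 CPM at 10 hpf and 69.4, 59.2, 75.7 and 113 CPM at 26 hpf. The yolk stood far above the whole embryo at 10 hpf and below it at 26 hpf, with a tissue difference of -5.08 ± 0.32 (adjusted p = 2.8e-08, and -5.35 without the library). Among hatching gland genes 4 of 5 were higher in all 6 fits. The hatching enzyme gene he1.1, whose protease digests the egg envelope, had 3.72, 2.68, 0.238 and 0.161 CPM in yolk at 10 hpf and 234, 856, 764 and 340.3 CPM at 26 hpf. At these ages whole embryos had 59.3, 64.4, 45.1 and 49.4 CPM at 10 hpf and 954, 806, 806 and 931 CPM at 26 hpf, and its tissue difference was 4.33 ± 0.91 (adjusted p = 0.0021, and 4.26 without the library). At 26 hpf the tissues overlapped in TMM levels.

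Heart muscle genes rose in both tissues, all 10 of 10 (9 in yolk without the library), and 4 were higher and 1 lower with all libraries and 2 and 1 without. The median with all libraries was 2.49. It was 0.961 with genes that had no count in a group, 6 of the 10, set at their bound. The atrial peptide gene nppa had no count in yolk at 10 hpf, 10.4, 14.2, 14.8 and 4.5 CPM in yolk at 26 hpf, and 0.124, 0, 0 and 0.122 CPM at 10 hpf and 2.79, 2.76, 3.29 and 2.1 CPM at 26 hpf in whole embryos. Set against 3 counts over the yolk group of 10 hpf, its tissue difference was at least 8.77-fold higher, and it was a call in all 6 fits. Summed heart markers were 854, 507, 571 and 349 CPM in yolk at 26 hpf and 281 to 603 CPM in whole embryos, which overlap.

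**Figure D5:**
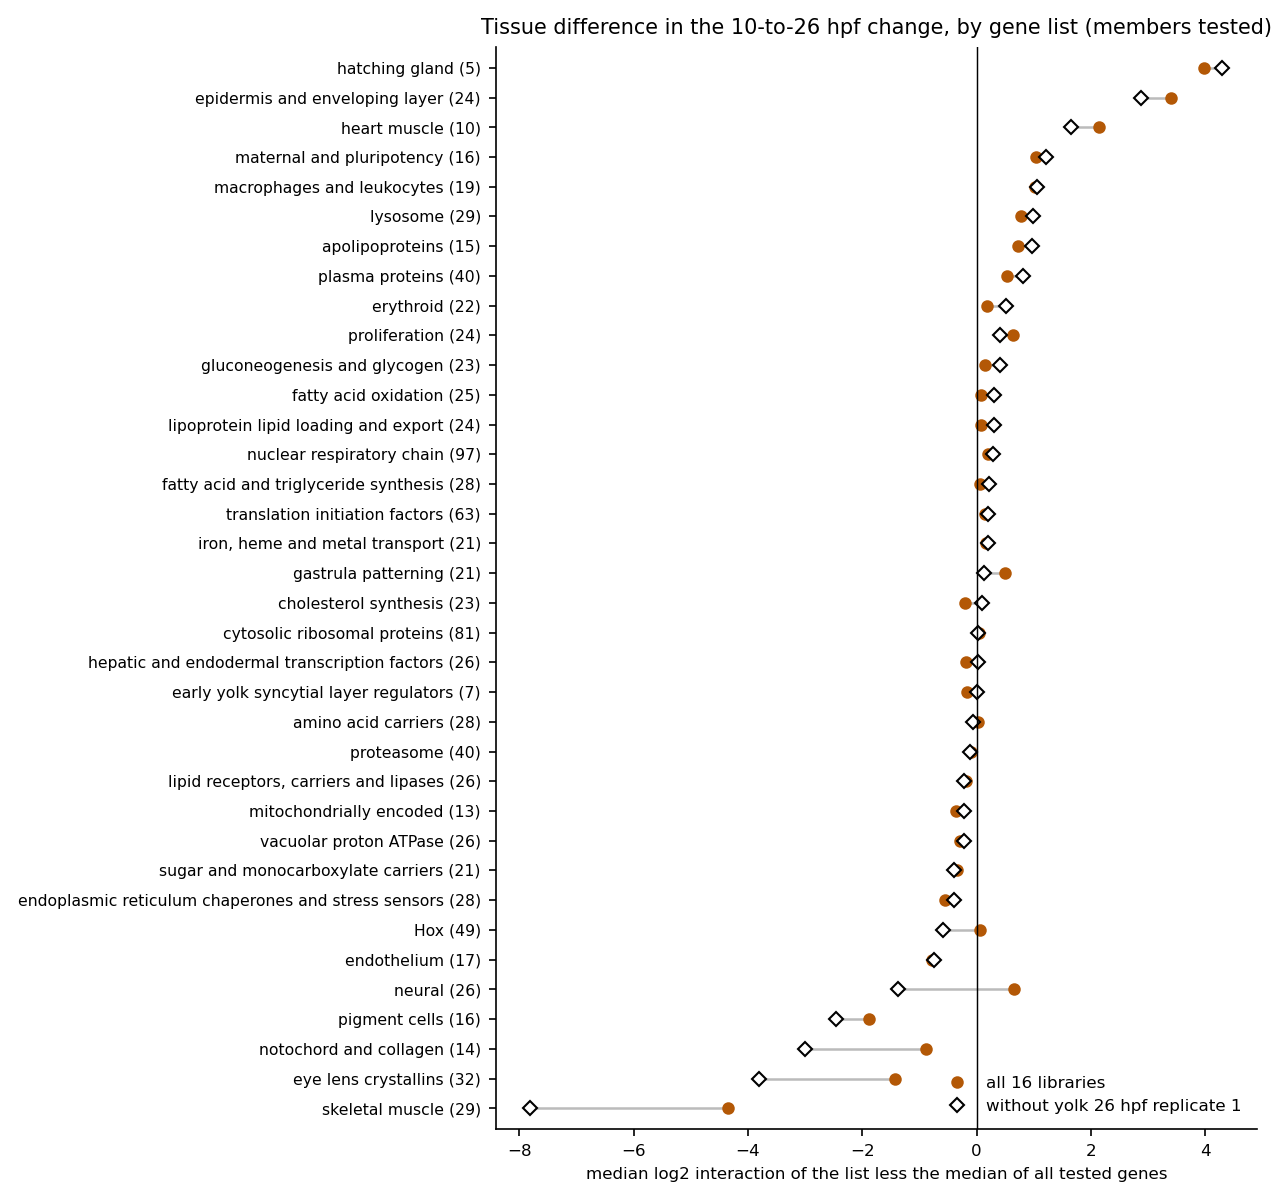
Median log2 tissue difference of each of the 36 gene lists less the median of all tested genes, from all 16 libraries (filled circles) and without yolk 26 hpf replicate 1 (open diamonds), with the number of tested members in brackets. Fitted values are drawn, also for genes that had no count in a group. The lists of skeletal muscle, lens crystallins, notochord and collagen, neural and Hox genes shift the most to the left without that library, and hatching gland and epidermis stay at the top.

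Genes of trunk and head tissues were lower mainly without the library. Of 29 skeletal muscle genes 2 were lower with all libraries (median -4) and 25 without the library (median -7.85), and 10 were lower with the block of age and number. The calcium pump gene atp2a1 had 0.48, 0.907, 0.238 and 9.47 CPM in yolk at 10 hpf and 3102, 1.18, 21.6 and 5.04 CPM at 26 hpf. For whole embryos the values were 0.763, 0.44, 0.58 and 1.48 CPM at 10 hpf and 5280.0, 5233, 6314 and 5282 CPM at 26 hpf. Its tissue difference was -4.57 ± 2.46 (adjusted p = 0.17) with replicate 1 and -11.3 (adjusted p = 0.00018) without it, and the block made it a call with all libraries (adjusted p = 0.042). The calcium release channel gene ryr1b, 1 of the 2 calls with all libraries, had 95.9, 2.37, 1.9 and 8.04 CPM in yolk and 195, 252, 274 and 216 CPM in whole embryos at 26 hpf, and a tissue difference of -6.36 ± 1.82 (adjusted p = 0.016, and -9.49 without the library), which was -4.11 without yolk 10 hpf replicate 3 (adjusted p = 0.0751).

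Notochord and collagen genes had 2 lower members with and 10 without the library of 14, and lens crystallins 2 of 32 with and 7 of 34 without it, or 4 with the block and all libraries. The cartilage and notochord collagen gene col2a1a had 30.7, 26.9, 28.8 and 25 CPM in yolk at 10 hpf and 901, 25.8, 17.2 and 18.4 CPM at 26 hpf. Whole embryo libraries held 32.6, 25.5, 25.1 and 22.2 CPM at 10 hpf and 1333, 1309, 1540.2 and 1075 CPM at 26 hpf. Without replicate 1 its tissue difference was -6.41 (adjusted p = 1.7e-10), and with it -2.53 (adjusted p = 0.18), which the block made a call (adjusted p = 0.021). Neural genes turned over in count, from 4 higher and 2 lower of 26 to 1 and 14, with medians of 1 and -1.43, and 1 was higher with the block.

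The neuronal splicing factor gene nova2 changed sign. It had 32.7, 28.8, 42.4 and 22.2 CPM in yolk at 10 hpf and 153, 30.7, 19.2 and 27.9 CPM at 26 hpf. In whole embryos it had 254, 247, 192 and 252 CPM at 10 hpf and 309, 373, 407 and 365 CPM at 26 hpf. Replicate 1 stood at 153 CPM and the other 3 yolk libraries overlapped those of 10 hpf. Its tissue difference was 0.25 ± 0.68 (adjusted p = 0.82) with all libraries and -1.24 without that library (adjusted p = 0.0021).

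Pigment cell genes were lower in both fits, 7 of 16 and 9 without the library, and 7 in all 6 fits. The pteridine pigment enzyme gene gch2 had 2.08, 2.37, 0.753 and 2.33 CPM in yolk at 10 hpf and 123, 27, 30.7 and 19 CPM at 26 hpf. Whole embryos had 0.577, 0.836, 0.424 and 0.446 CPM at 10 hpf and 244, 229, 271 and 305 CPM at 26 hpf. It rose in both tissues and by less in yolk, with a tissue difference of -4.11 ± 0.75 (adjusted p = 0.00068) and -5.4 without replicate 1, the highest of its group. The purine enzyme gene pnp4a, used by reflective iridophores, fell in yolk from 38.1, 29.2, 33 and 23.8 to 8.0, 4.66, 2.56 and 3.97 CPM. It rose in whole embryos from 1.07, 1.52, 2.23 and 1.58 to 9.55, 10.6, 11.9 and 11.7 CPM, and its tissue difference was -5.45 ± 0.43 (adjusted p = 1.9e-07, and -6.16 without the library).

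Most genes of early embryonic patterning fell in both tissues, and their tissue differences turned with the library. Of 21 tested gastrula patterning genes 19 fell in whole embryos and 14 in yolk, 8 were higher and 1 lower, and without the library 6 and 6, with medians of 0.854 and 0.081. Less the median of all genes these medians were 0.501 and 0.129. The mesoderm T-box gene tbx6 had 4.48, 3.79, 4.04 and 6.1 CPM in yolk at 10 hpf and 2.93, 2.96, 2.66 and 5.25 CPM at 26 hpf, which overlap. Its whole embryo levels were 232, 196, 156 and 184 CPM at 10 hpf and 2.13, 2.2, 1.47 and 3.24 CPM at 26 hpf, and its tissue difference was 5.98 ± 0.37 (adjusted p = 2.7e-08, and 5.71 without the library). The ventral homeobox gene vox fell from 389, 367, 330.4 and 382 to 26, 28.1, 58.3 and 74.4 CPM in yolk. In whole embryos it fell from 87.4, 91.5, 109 and 80 to 2.94, 1.67, 1.91 and 3.94 CPM, with a tissue difference of 2.16 ± 0.44 (adjusted p = 0.0014, and 2.01 without the library), whereas that of the related vent was 0.51 (adjusted p = 0.32).

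The pluripotency factor gene pou5f3 rose in yolk and fell in whole embryos. Yolk had 5.24, 4.73, 7.09 and 5.62 CPM at 10 hpf and 8.83, 9.55, 9.21 and 12.2 CPM at 26 hpf. Whole embryos had 33.2, 33, 30.3 and 40.9 CPM at 10 hpf and 1.36, 1.38, 0.57 and 1.83 CPM at 26 hpf. Neither pair of sets overlapped, and the tissue difference was 5.55 ± 0.38 (adjusted p = 6.1e-08, and 5.26 without the library). Of 16 maternal and pluripotency genes 3 were higher and 1, ddx4, was lower (-1.47), as without the library. With all libraries the share of this list that was higher was near the 21.6% of all genes. Of 49 Hox genes 19 were higher and 0 lower, and without the library 14 and 18, with medians of 0.418 and -0.626. The first median was 0.277 with genes that had no count in a group at their bound. Less the median of all genes the fitted medians of the Hox list were 0.0643 and -0.579. A total of 11 Hox genes were higher in all 6 fits. Among them were hoxb5a, hoxa3a and hoxb4a (3.33, 2.77 and 2.76, and 3.03, 2.18 and 2.4 without the library), and also hoxb6a, hoxb8b and hoxd9a.

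Proliferation genes were higher in 21 of 24 with all libraries and in 11 without the library, and in 8 in all 6 fits. The replication helicase gene mcm2 had 41.9, 51, 61.7 and 52.1 CPM in yolk at 10 hpf and 215, 141, 122 and 91.8 CPM at 26 hpf. Levels in whole embryos were 323, 394, 366 and 387 CPM at 10 hpf and 279, 248, 242 and 224 CPM at 26 hpf. It rose in yolk, where replicate 1 was the highest, and fell in whole embryos, and it stayed below them throughout. The tissue difference was 2.03 ± 0.29 (adjusted p = 5.8e-05) and 1.43 without the library. The helicase subunits mcm3, mcm4 and mcm5 and the clamp gene pcna had 1.92, 1.95, 1.94 and 1.43, and 1.38, 1.43, 1.35 and 0.81 without the library, calls of all 6 fits, whereas mki67 was a call only with the library.

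Housekeeping lists followed the library and the scaling. Cytosolic ribosomal protein genes had 18 of 81 higher with all libraries, 2 without the library and 0 in all 6 fits, a share near that of all genes in the main test, and their median was 0.0425 above that of all genes. Nuclear respiratory chain genes had 30 higher and 3 lower of 97, and 12 and 6 without the library. Translation initiation factors had 29 and 3 of 63, and 12 and 5. Proteasome genes had 5 higher and 2 lower of 40, and 0 and 8. Endoplasmic reticulum chaperones and stress sensors had 4 and 3 of 28, and 3 and 9, with the stress sensor gene atf6 lower in all 6 fits (-1.63). None of 13 mitochondrially encoded genes was called in the edgeR test with or without the library, although library totals made 1 lower.

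Genes that moved in opposite directions were taken from those with all 3 calls in both fits, a level of at least 10 CPM and a gene symbol, 257 up in yolk and down in whole embryos and 153 the converse. Those with the largest changes in both tissues included lcp1, vsir, klf17, efnb2b, krt17 and ptgs1 in the first group. The gene vsir, named for an immune checkpoint receptor of mammals, had 0.64, 0.316, 0.713 and 0.241 CPM in yolk at 10 hpf and 6.76, 6.79, 7.41 and 4.72 CPM at 26 hpf. The whole embryo libraries had 14.4, 14.7, 15.2 and 14.9 CPM at 10 hpf and 2.6, 2.45, 2.48 and 3.27 CPM at 26 hpf, and its tissue difference was 6.19 ± 0.41 (adjusted p = 4.2e-08, and 5.84 without the library). In TMM levels the order of the tissues turned over with no overlap at either age, which was not checked with another scaling.

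The blood and hatching gland factor gene klf17 had 3.12, 1.42, 3.88 and 0.482 CPM in yolk at 10 hpf and 8.45, 30.1, 23.6 and 35.3 CPM at 26 hpf. At these ages whole embryos had 47, 58.2, 51.4 and 54.4 CPM at 10 hpf and 10.8, 11.8, 10.7 and 11 CPM at 26 hpf. By TMM, replicate 1 of yolk was below the whole embryos at 26 hpf and the other 3 above, which was not checked with another scaling. The tissue difference was 5.7 ± 0.67 (adjusted p = 1.2e-05, and 5.64 without the library). The vessel guidance ligand gene efnb2b had 23, 19.6, 18.1 and 18.9 CPM in yolk at 10 hpf and 45.6, 78, 81.6 and 154 CPM at 26 hpf. For whole embryos the values were 188, 177, 174 and 186 CPM at 10 hpf and 16.9, 20.3, 16.2 and 18.6 CPM at 26 hpf, with a tissue difference of 5.51 ± 0.37 (adjusted p = 4.8e-08, and 5.37 without the library) and no overlap at either age.

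In the converse group the glycolytic enolase gene eno3 had 598, 460.3, 413 and 453 CPM in yolk at 10 hpf and 174, 71, 111 and 153 CPM at 26 hpf. Whole embryo libraries held 39.1, 34.6, 33.8 and 36.3 CPM at 10 hpf and 166, 148, 161 and 123 CPM at 26 hpf. By TMM the ratio of yolk to whole embryo went from 13.4 to 0.85, with an overlap at 26 hpf, and neither was checked with another scaling. The tissue difference was -3.98 ± 0.31 (adjusted p = 1.8e-07, and -4.51 without the library). The gene plecb, of a protein that links filaments of the cytoskeleton, had 482, 382, 414 and 417 CPM in yolk at 10 hpf and 118, 54.7, 43.7 and 27.4 CPM at 26 hpf. Whole embryos had 70.5, 41.7, 44.9 and 54.4 CPM at 10 hpf and 204, 257, 247 and 233 CPM at 26 hpf. The yolk went from above to below the whole embryo without overlap, and the tissue difference was -4.95 ± 0.46 (adjusted p = 1.1e-06, and -5.81 without the library).

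The 15 largest tissue differences in each direction also held genes not described above. On the higher side they included abi3bpb, avpr1aa, the vasopressin receptor gene, hlx1, a homeobox gene, and lyve1b, of a receptor of lymphatic and venous lining, all without a count in yolk at 10 hpf. Their differences were at least 34.8-fold, 18.7-fold, 10.4-fold and 8.75-fold higher against 3 counts over that group. The keratin gene krt94 had a tissue difference of 7.1 ± 0.73 (adjusted p = 2.5e-06, and 6.9 without the library). The quinone reductase gene nqo1, the largest in size of the named genes that had counts in every group, turned on replicate 4. It had 13.7, 13.3, 14.2 and 907 CPM in yolk at 26 hpf after 2.0, 3.59, 2.77 and 1.61 CPM at 10 hpf. Whole embryos had 105, 114, 144 and 90.7 CPM at 10 hpf and 20.7, 18.6, 18.3 and 54.5 CPM at 26 hpf, with replicate 4 again the highest at 26 hpf. This gave a tissue difference of 8.59 ± 1.77 (adjusted p = 0.002, and 8.59 without the library), and 4.48 without yolk 26 hpf replicate 4 (adjusted p = 8.3e-06).

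On the lower side stood muscle genes such as myot (-7.05, and -11.69 without the library) and igfn1.1 (-6.78, and -10.42 without it) and a set that fell in yolk. The proprotein convertase gene pcsk5a, of a protease that activates secreted precursors, had 73.7, 93, 89.3 and 64.6 CPM in yolk at 10 hpf and 0.178, 0.237, 0 and 0 CPM at 26 hpf. Whole embryos had 1.98, 5.72, 3.66 and 7.26 CPM at 10 hpf and 0.529, 0.496, 0.536 and 0.534 CPM at 26 hpf. The yolk went from well above to below the whole embryo, with a tissue difference of -6.22 ± 0.68 (adjusted p = 5.3e-06, and -6.92 without the library). The growth factor gene nrg2b, the chloride carrier gene slc12a5b and lrrc7 also fell in yolk, with tissue differences of -6.17, -6.73 and -6.16, and of -8.17, -8.85 and -6.63 without the library. The laminin gene lamb4, of a basement membrane chain, fell in yolk from 35.1, 35.7, 32.9 and 28.9 to 21.4, 13.3, 9.31 and 3.22 CPM. It rose in whole embryos from 2.78, 2.24, 1.96 and 1.86 to 63.1, 59.5, 69.2 and 59 CPM, and its tissue difference was -6.3 ± 0.53 (adjusted p = 4.2e-07, and -7.07 without the library).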

How the data were processed

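RNA was extracted with TRIzol and made into libraries with an NEBNext Ultra II kit, per the labels' protocols. The submitters' processing notes list the zebrafish build GRCz11 with featureCounts 2.0.6, STAR 2.7.10b, Trim Galore 0.6.10 and FastQC 0.12.1, and whether counting used strand is not given in the sources used here, so antisense or overlapping genes and near-identical paralogs are uncertain. The deposited values are whole-number read counts per gene, made by the authors, for 36109 genes in 32 libraries, of which 3719 had no count in the 16 used here. The lowest chi-square per gene between replicates was 19.7, so no pair agreed within sampling noise.

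Counts were filtered by the filterByExpr function (at least 10 counts, 15 in total), scaled by TMM and fitted as 4 group means with the robust quasi-likelihood test of edgeR 4.0.16 in R 4.3.3. The fit was also run on simulated counts with seeded tissue differences, independent libraries and a smaller dispersion than in these data. That run does not measure error rates here. Fits with 15 libraries left out yolk 26 hpf replicate 1 throughout. Levels are from the fit of all 16. A gene without a count in a group gets a bound against 3 counts over that group in place of a fold. Alternatives were DESeq2 1.42.0, other scalings, no filter, all 32 libraries, a block of replicate number, and each library left out. Size factors without the yolk library and the count over 6 fits were chosen after seeing the data. Named genes were a fixed set of the lipoprotein pathway, the 15 largest tissue differences and 10 largest opposite changes per direction among genes of at least 10 CPM called with and without the library, and from each list up to 4 called members and the 2 of highest level. Members and lists were chosen with earlier results of these data known.

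Same-numbered yolk and whole embryo libraries of 1 age deviated together, with correlations over 9250 genes of 0.18 to 0.3 at 10 hpf and 0.2 to 0.31 at 26 hpf, all 4 pairs at each age above 0.1, while across ages none of the 4 pairs was above 0.1 in either tissue. The numbers thus pair the samples within an age, as the data show and the labels do not state. The main counts, standard errors and adjusted p-values come from the fit of group means, which leaves this pairing out. The block of age and replicate number, which takes it in, is given beside each described gene whose call it changes.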

Additional observations from a re-analysis of the deposited data

Results flagged for a closer look

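The tissue difference in the change is itself a difference between groups that passed its test, in 5192 genes higher and 2654 lower with all 16 libraries and in 3532 and 4655 without yolk 26 hpf replicate 1.

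Among 181 groups of 4 libraries, made of 53 genes and 8 summed lists with a mean of at least 10 CPM, the highest or lowest library stood apart from the other 3 by Dixon's criterion (the gap to the nearest of the others over the whole range) in 20. Chance gives about 1 in 20 groups for independent normal values. The genes were chosen with the data known and some also enter the summed lists, so that rate is no measure of an excess here. Of the 20 cases 8 were yolk 26 hpf replicate 1, as the highest of its group. They were ryr1b at 95.9 CPM, atp2a1 at 3102 CPM, gch2 at 123 CPM, nova2 at 153 CPM, col2a1a at 901 CPM, summed skeletal muscle genes at 17074 CPM, summed neural genes at 1197 CPM and summed lens crystallins at 184 CPM.

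The oxidative stress gene nqo1 stood apart in replicate 4 of both tissues at 26 hpf, at 907 CPM in yolk and 54.5 CPM in whole embryos. In whole embryos at 26 hpf, apoea was highest in replicate 4 (68.1 CPM), tal1 and atp2a1 were highest in replicate 3 (18.8 and 6314 CPM), krt4 was highest and apobb.1 lowest in replicate 1 (11072 and 3089.9 CPM), and summed heart genes were lowest in replicate 2 (281 CPM). In whole embryos at 10 hpf, apoeb was highest (3713 CPM) and nova2 lowest (192 CPM) in replicate 3, and summed lens crystallins were highest in replicate 4 (165 CPM). In yolk at 10 hpf, hnf4a was lowest in replicate 2 (338 CPM).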

How the results depend on the processing

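Leaving out each library in turn gave 3532 to 5523 higher and 2314 to 4655 lower genes. The count of lower genes moved most without yolk 26 hpf replicate 1 (4655), and without it 387 genes were up in yolk and down in whole embryos and 664 the converse. The other libraries were not left out for these patterns. Library totals gave 2639 higher genes and 247 up in yolk and down in whole embryos. The share of calls that were higher was 66.2% with TMM, 51.5% with size factors, 45.4% with library totals and 43.1% without that library. DESeq2's Wald test gave 4179 higher and 3854 lower genes, all 32 libraries 4496 and 3242, and no low-count filter 4672 and 2510.

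Without yolk 26 hpf replicate 1, nova2 changed sign (-1.24, against at most 0.539 without any other library), also with library totals (-1.365), size factors (-1.153), 31 libraries (-1.016) and the block (-1.295). Without it and with library totals, atp5fa1 (-0.4486), rplp0 (-0.0317) and eif5a (-0.4301) changed sign. Signs also changed with all libraries kept, in 6 of 241 named genes with size factors and in 9 with library totals. None of these was a call in either of the fits compared. With size factors they included nova2 (-0.0365), atp5fa1 (-0.149) and eif5a (-0.161). The cause was not tested.

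The replicate block of age and number gave 4865 higher and 2746 lower genes, and of 241 named genes 12 calls were lost and 8 gained. The calls lost, at adjusted p from 0.0551 to 0.203, were those of tmem176l.4, ntn1b, jph2, atp6v1c2, sqlea, elovl7b, fabp2, rps27l, zp3b, anxa1c, neurog1 and zic1, none of them described above. Of the 8 calls gained, those of apobb.2, hnf4b, fetub, atp6v0ca, atp2a1 and col2a1a are given above, and the others are not listed. Some list counts with the block are also given above. A block of the number alone gave 4854 and 2631.

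What limits the values is 4 libraries per group, 1 yolk library with body tissue transcripts, yolk inside the whole embryos and the dependence of zero on scaling.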
